A study of Rattus norvegicus with 105 samples.

Results

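The comparison described here asked whether damage to the ventral hippocampus and its disruption with tetrodotoxin left opposed or agreeing marks on transcript levels in rat frontal cortex. Its members were the 42 arrays that the sample descriptions place in the ventral hippocampal lesion and tetrodotoxin (TTX) experiments, of 105 in the series. Each experiment was set against its own sham group, and the lesion effect minus the TTX effect is called the difference throughout, while the average of both effects is called the mean effect. The lesion experiment held 12 arrays labelled lesion and 10 labelled sham, and the TTX experiment held 11 arrays labelled TTX and 9 labelled sham. All were total RNA of frontal cortex. The sources used here do not state the strain, age at surgery, interval to dissection, lesioning agent or TTX dose, nor what the shams received. Nor do the labels tie every array to an animal of its own: p-values therefore measure only how far these samples spread, which may be partly technical.

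The ventral hippocampus sends glutamatergic fibres to the medial prefrontal cortex, where they reach pyramidal cells and interneurons. A lesion destroys neurons of the region, whereas TTX, a blocker of voltage-gated sodium channels, stops their action potentials without removing the cells. Neurons that become active switch on immediate early genes such as Fos, Egr1 and the Nr4a receptors within minutes, which makes these transcripts a common readout of recent cortical activity.

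Each array gave 1 linear intensity for every one of 31099 probe sets. The arrays of each experiment were quantile-normalised together, values under 32 were set to 32 before log2 was taken, and the 18625 probe sets with the highest mean were tested with limma in 1 joint fit. All values below are log2 values of a single probe set per gene, or differences between them, and the number of arrays limits their precision. The defining markers of the labelled tissue were present: the vesicular glutamate transporter Slc17a7 lay between 13.98 and 15.05 on all 42 arrays and the myelin gene Mbp between 16.16 and 16.75. The mean correlation of lesion replicate 7 with the other arrays of its experiment was 0.954, against a median of 0.976 in its group, and that of lesion sham replicate 9 was 0.967. In TTX sham replicate 3 the choroid plexus gene Ttr, singled out after its values were seen, was at 16.64, while the median of its group was 8.36. The first principal component divided the TTX arrays between sample numbers 133 and 134, with 5 TTX and 3 sham arrays before and 6 and 6 after. Values within these blocks, and within the first and second 11 sample numbers of the lesion experiment, are given where they matter.

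No gene passed the test for a difference or for a mean effect, and the estimated effects of lesion and TTX were close to uncorrelated across probe sets. Limma called 0 of 18625 probe sets (0%) for the difference at an adjusted p under 0.05, where the smallest adjusted p was 0.603, and 0 (0%) for the mean effect, where it was 0.112. Sample numbers came in runs that each held arrays of 1 group, and arrays of a run had a consensus correlation of 0.198. The SEs and p-values of the fit do not allow for this. With runs as a random block in limma, the smallest adjusted p was 0.9999 for the difference and for the mean effect. At an unadjusted p under 0.05 there were 1182 probe sets (6.35%) for the difference, 600 positive (3.22%) and 582 negative (3.12%), and 1106 (5.94%) for the mean effect. Over 18625 probe sets the Pearson correlation of both effects was -0.045, given as a description because probe sets share the same arrays, and 48.97% had effects of the same sign. The median SE was 0.12 for the difference and 0.061 for the mean effect. Over probe sets the SD was 0.116 for the lesion effect and 0.104 for the TTX effect, beside median SEs of 0.084 and 0.088. Much of that spread is error, so a correlation near 0 cannot show whether the underlying effects were related.

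The overlap of both experiments was close to the shares over all probe sets, and the error in the estimates limits this reading too. Of 1615 probe sets with a lesion effect at an unadjusted p under 0.05, 3.65% also had a TTX effect at that level, beside 4.07% of all probe sets. These were 7.78% of the 758 TTX probe sets, beside the 8.67% of all probe sets with a lesion effect. Among these 59, the effects were opposed for 27 (0.145% of all tested) and agreed for 32 (0.172%). Reduced to 1 probe set for each of 10149 genes, 10 were opposed and 15 agreed. Of the opposed genes 7 were lower with the lesion and higher with TTX, and 3 the other way round. Of the agreeing genes 11 were higher in both and 4 lower in both. A difference at an unadjusted p under 0.05 could also come from 1 experiment: of 645 such genes, 319 had only the lesion effect at that level, 131 only the TTX effect, 185 neither and 10 both. The count of opposed probe sets was 17 without TTX replicate 5 and 48 without TTX sham replicate 2, and that of agreeing ones 53 without TTX sham replicate 8. Without TTX sham replicate 3, the array of high Ttr, they were 22 and 27. Over everything tested, all lesion arrays lay on 1 side of their sham mean in 176 cases, and all TTX arrays in 162. In 0 cases did both hold, on opposite sides or on the same side.

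**Figure D1:**
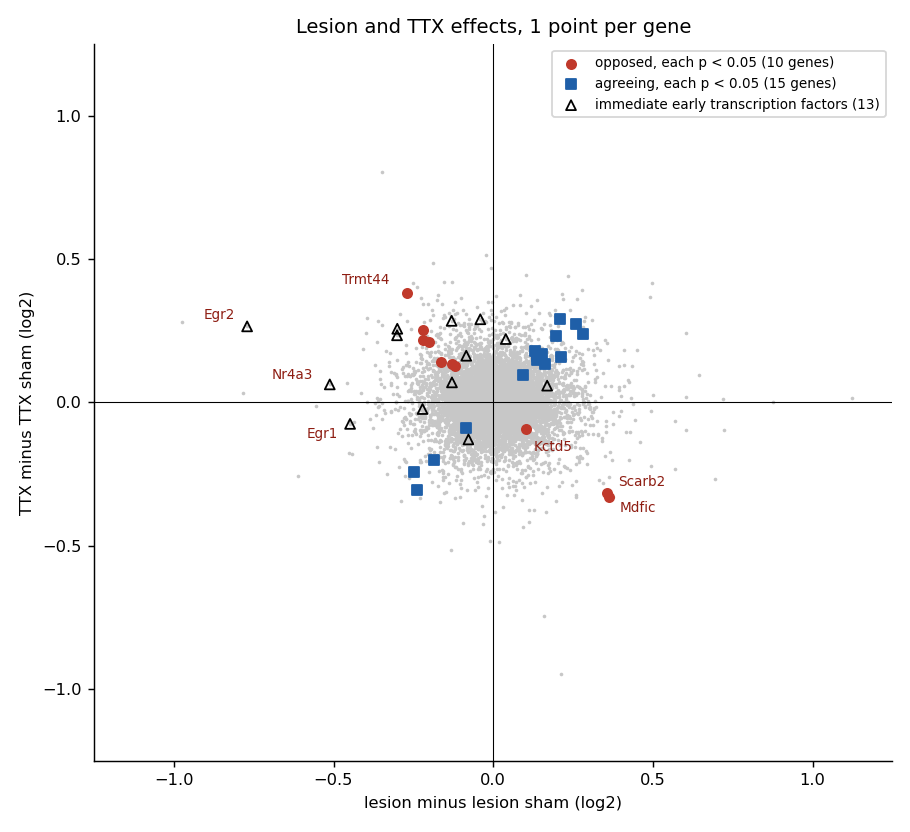
Lesion effect (horizontal axis, log2) against TTX effect (vertical axis, log2) for 10149 genes, in grey. Red circles are the 10 opposed and blue squares the 15 agreeing genes, and open triangles are 13 immediate early transcription factors, most of which lie left of 0. The cloud has no clear slope.

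The 7 genes with a negative lesion effect and a positive TTX effect were Taok2, Trmt44, Dusp8, Rnf126, Itga7, Naa60 and Vash1. The class was defined by both effects, so the values are a description and the counts above are its background. Trmt44 (probe set 1390222_at), a tRNA methyltransferase, was the member with the smallest p for the difference. In the lesion experiment it ran from 8.99 to 9.37 in sham, with a median of 9.20, and from 8.36 to 9.29 after the lesion, with a median of 8.91. In the TTX experiment the sham arrays ran from 8.43 to 9.41 (median 8.89) and the TTX arrays from 9.03 to 9.71 (median 9.30). Of 12 lesion arrays 8 lay below every sham array, and all 11 TTX arrays lay above the mean of their sham group, though both pairs of groups overlapped. The lesion effect was -0.27 ± 0.11 (SE) and the TTX effect 0.38 ± 0.11, a difference of -0.65 ± 0.16 with an adjusted p of 0.603 (limma). Within blocks the lesion effect was -0.32 and -0.22 and the TTX effect 0.57 and 0.31, so the signs held in each.

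Taok2 and Dusp8 both belong to stress-activated MAP kinase signalling, the first as an upstream kinase and the second as a phosphatase that inactivates these kinases. For Taok2 (1387140_at) the effects were of almost equal size. Sham arrays of the lesion experiment lay between 10.18 and 11.04 around a median of 10.41, and lesion arrays between 9.96 and 10.47 around 10.30. The corresponding spans were 10.24 to 10.48 around 10.39 in TTX sham and 10.32 to 10.99 around 10.55 with TTX. TTX arrays stood above their shams, with 7 of 11 above every sham array, and 11 of 12 lesion arrays were under the sham mean. Its lesion effect was -0.20 ± 0.080, its TTX effect 0.21 ± 0.084 and the difference -0.41 ± 0.12 (adjusted p = 0.708). Without the 2 arrays of low correlation the difference was -0.33. Dusp8 (1386396_at) showed the same arrangement. The lowest, median and highest log2 values were 9.57, 9.86 and 10.00 in lesion sham and 9.04, 9.67 and 10.02 after the lesion. They were 9.18, 9.66 and 9.80 in TTX sham and 9.57, 9.91 and 10.29 with TTX. Again 7 of 11 TTX arrays exceeded all shams and 5 of 12 lesion arrays lay below all of theirs. Effects were -0.22 ± 0.098 and 0.25 ± 0.10, and the difference was -0.47 ± 0.14 (adjusted p = 0.708).

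Among the other 4, the ubiquitin ligase Rnf126 was at -0.16 ± 0.061 after the lesion and 0.14 ± 0.064 after TTX, with 10 of 12 and 10 of 11 arrays on these sides of the sham means. Itga7, the laminin-binding integrin subunit, was at -0.22 ± 0.097 and 0.22 ± 0.10, but the other probe set of the gene had a difference of 0.28 where this one had -0.44. Naa60, a Golgi acetyltransferase, was at -0.12 ± 0.056 and 0.13 ± 0.059, and Vash1, which removes the terminal tyrosine of tubulin, at -0.13 ± 0.061 and 0.13 ± 0.064. Without lesion replicate 7 the difference of Itga7 was -0.36. At the edge of the class, Vash1 had an unadjusted p of 0.0438 for its TTX effect and Kctd5, on the other side, one of 0.0464, while Hcn2 (0.0536) and Tsen15 (0.0549) fell just outside.

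The reverse pattern, higher after the lesion and lower after TTX, was seen for Scarb2, Mdfic and Kctd5. Scarb2 (1368379_at) encodes the lysosomal membrane protein that delivers glucocerebrosidase to lysosomes. Sham arrays of the lesion experiment lay between 10.20 and 11.11 around a median of 10.79, and lesion arrays between 10.46 and 11.48 around 11.14. The corresponding spans were 10.55 to 11.21 around 11.12 in TTX sham and 9.97 to 11.22 around 10.72 with TTX. Lesion arrays were mostly high, 6 of 12 above every sham, and 9 of 11 TTX arrays were under their sham mean. The effects were 0.36 ± 0.13 and -0.32 ± 0.13, a difference of 0.67 ± 0.19 (adjusted p = 0.708). It held in both blocks, at 0.34 and 0.37 for the lesion and -0.33 and -0.22 for TTX. With sample number as a covariate the difference was 0.81 and passed (adjusted p = 0.0391). Mdfic (1374752_at), an inhibitor of MyoD family factors, was similar in size. The lowest, median and highest log2 values were 8.06, 8.83 and 9.17 in lesion sham and 8.37, 9.19 and 9.73 after the lesion. They were 8.69, 9.40 and 10.02 in TTX sham and 8.54, 9.03 and 9.34 with TTX. Here 7 of 12 lesion arrays exceeded all shams, while only 1 TTX array lay below all of its own. Its difference was 0.69 ± 0.20 (adjusted p = 0.708). Kctd5, an adaptor of cullin ubiquitin ligases, was at 0.10 ± 0.043 and -0.093 ± 0.045, and its other probe set had a difference of the opposite sign, -0.17.

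**Figure D2:**
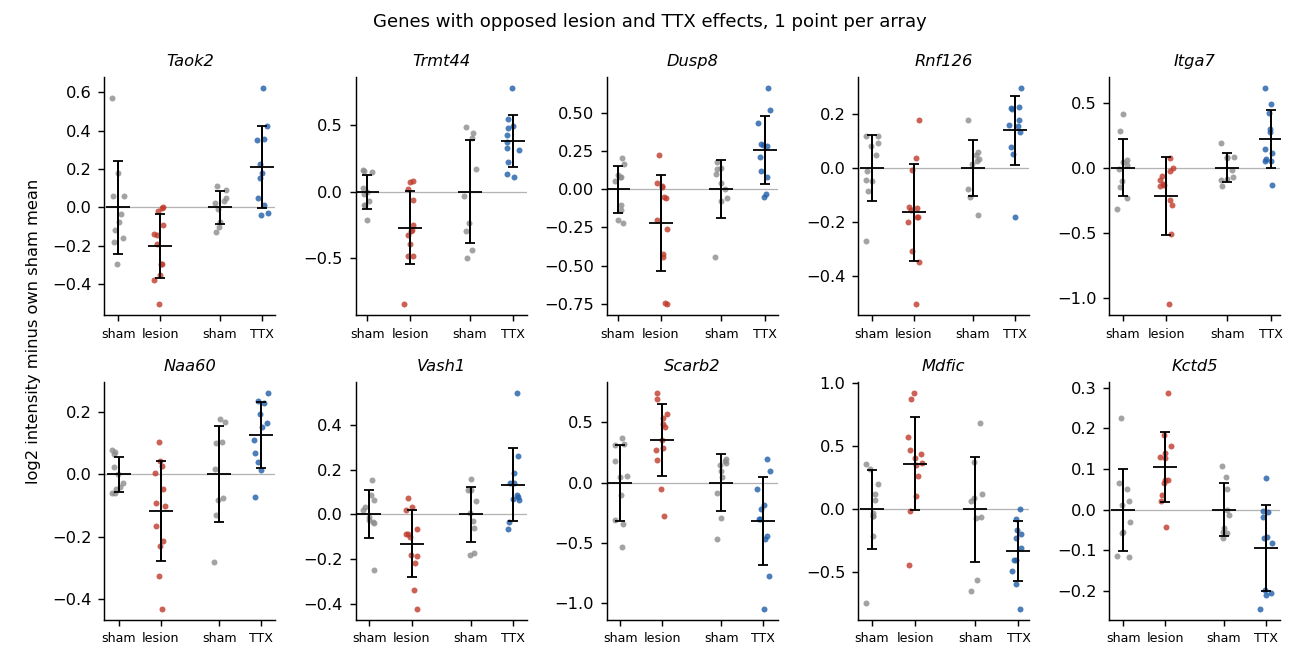
Log2 intensity minus the mean of the own sham group, 1 point per array, for the 10 opposed genes; bars show the mean and 1 SD. In the first 7 panels the lesion arrays sit mostly below and the TTX arrays mostly above 0, in the last 3 the reverse, and every pair of groups overlaps.

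Most genes with the smallest p for the difference had a clear effect in 1 experiment only. On the positive side Mapre1, the microtubule plus-end protein EB1, had a lesion effect of 0.21 ± 0.044 and a TTX effect of -0.056 ± 0.046. All 12 lesion arrays were above the sham mean, the difference was 0.27 ± 0.063 (adjusted p = 0.603), and its other 2 probe sets had positive differences of 0.068 and 0.16. Pdcd5, a gene linked to programmed cell death, followed at 0.22 ± 0.044 and -0.018 ± 0.046, and the cargo receptor Tmed9 at 0.18 ± 0.043 and -0.036 ± 0.046. In both genes all 12 lesion arrays again stood above the sham mean. Over everything tested, 176 cases had all lesion arrays on 1 side of it. The tRNA splicing subunit Tsen15 (0.18 and -0.12), Ccdc107 (0.17 and -0.11) and the amyloid precursor-binding protein Appbp2 (0.21 and -0.14) had opposed signs, with the TTX effect short of an unadjusted p of 0.05. The prolyl isomerase Pin4 had the largest difference of these 10 genes, 0.80 ± 0.23, from 0.57 after the lesion and -0.23 after TTX, and Tmem242 was at 0.19 and -0.058.

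On the negative side the pacemaker channel subunit Hcn2 (1370966_at), which carries the hyperpolarisation-activated current of cortical pyramidal cells, came close to the opposed class. In the lesion experiment it ran from 10.93 to 11.71 in sham, with a median of 11.27, and from 10.47 to 11.29 after the lesion, with a median of 11.02. In the TTX experiment the sham arrays ran from 10.75 to 11.41 (median 10.97) and the TTX arrays from 10.97 to 11.48 (median 11.23). Lesion arrays were low, 11 of 12 under the sham mean, and TTX arrays high, 9 of 11 above theirs, with overlap in both experiments. The effects were -0.36 ± 0.10 and 0.21 ± 0.11, and the difference -0.57 ± 0.15 (adjusted p = 0.708). The calcium-binding protein Necab2 was at -0.32 ± 0.069 after the lesion, where 10 of 12 arrays lay below every sham, and at 0.069 ± 0.072 after TTX. The zinc finger repressor Zbtb42 was the mirror case, at -0.13 ± 0.090 after the lesion and 0.42 ± 0.094 after TTX, where 8 of 11 arrays exceeded every sham. The polarity scaffold Scrib (-0.14 and 0.27), the ciliary gene Tbc1d32 (-0.19 and 0.49) and the sodium-proton exchanger Slc9a2 (-0.41 and 0.19) completed the list.

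Immediate early transcription factors had, for 8 of 13 tested members, a negative lesion effect and a positive TTX effect. The list had been chosen with earlier results of these arrays known, so its direction is not independent evidence. Of 21 listed factors 13 were tested, 6 were under the filter (Fosb, Fosl1, Fosl2, Egr3, Atf3 and Maff) and Npas4 and Btg2 had no probe set with that single symbol. The difference was negative for 11 of 13, with a median of -0.33 against 0.0018 over all 10149 genes. At an unadjusted p under 0.05 there were 4 negative and 0 positive members, beside 3.12% and 3.22% of all probe sets, and none passed after adjustment. Beside the 8 members of opposed sign, 2 were higher in both and 3 lower in both. The 4 with the smallest p were the orphan nuclear receptor Nr4a3, the zinc finger factors Egr2 and Egr1, and Nr4a1.

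Activity reaches these genes through serum response factor at CArG boxes and through CREB at cyclic AMP response elements (CRE), and the promoters of the 3 leading members held in the RefSeq table are shown for these motifs. The 250 bases before the transcription start are printed 5′ to 3′ in lower case (build GRCr8), with CArG boxes and the short CRE motif (TGACG or CGTCA) in capitals.
Egr1 (chr18:26736828-26737077, + strand): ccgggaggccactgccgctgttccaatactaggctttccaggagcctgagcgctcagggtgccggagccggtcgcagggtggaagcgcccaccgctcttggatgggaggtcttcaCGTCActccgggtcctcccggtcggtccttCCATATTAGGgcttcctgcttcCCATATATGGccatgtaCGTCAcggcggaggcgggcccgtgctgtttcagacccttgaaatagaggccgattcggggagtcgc
Egr2 (chr20:21054442-21054691, - strand): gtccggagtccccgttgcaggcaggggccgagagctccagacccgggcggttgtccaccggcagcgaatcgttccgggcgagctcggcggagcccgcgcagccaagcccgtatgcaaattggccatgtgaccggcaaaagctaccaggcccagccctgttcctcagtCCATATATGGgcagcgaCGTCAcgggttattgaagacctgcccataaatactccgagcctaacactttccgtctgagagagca
Nr4a1 (chr7:134259888-134260137, + strand): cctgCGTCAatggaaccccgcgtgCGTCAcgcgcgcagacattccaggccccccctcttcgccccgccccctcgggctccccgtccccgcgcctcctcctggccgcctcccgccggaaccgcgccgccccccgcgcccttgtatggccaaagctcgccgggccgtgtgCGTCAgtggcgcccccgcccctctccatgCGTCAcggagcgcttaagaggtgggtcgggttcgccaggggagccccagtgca
Egr1 holds CArG boxes that begin at -105 and -83 from the start, and Egr2 holds 1 at -83. In both a short CRE motif begins at -66, and Egr1 has another at -135. Nr4a1 has no CArG box in this window and short CRE motifs at -246, -226, -82 and -53. Both strands were searched, and windows of 250 bases before and 50 after the start were counted. A CArG box was found in 1.64% of all 33469 promoters and in 2 of the 9 tested members that the table held. The short CRE motif was found in 21.2% of all promoters and in 9 of 9 members, and the full element TGACGTCA, which overlaps the short motif on both strands, in 1.83% and in 3 members, Crem, Ier2 and Jund. A member with several listed promoters was counted where any of them held the motif. A match is a description of these letters, not a bound site.

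Egr1 (1368321_at) is a zinc finger factor widely used as a marker of recent neuronal activity. Sham arrays of the lesion experiment lay between 13.97 and 14.70 around a median of 14.48, and lesion arrays between 13.52 and 14.54 around 13.97. The corresponding spans were 14.14 to 14.93 around 14.55 in TTX sham and 14.00 to 14.83 around 14.61 with TTX. Lesion arrays were low, 11 of 12 below the sham mean, whereas TTX and its sham covered nearly the same range. The effects were -0.45 ± 0.11 and -0.075 ± 0.12, so that both were negative and the difference was -0.37 ± 0.16 (adjusted p = 0.741). Its mean effect, -0.26 ± 0.080, was also among the 10 negative ones with the smallest p (adjusted p = 0.698). Egr2 (1387306_a_at) spread far more widely. The lowest, median and highest log2 values were 8.08, 9.77 and 10.45 in lesion sham and 7.88, 8.83 and 10.29 after the lesion. They were 8.70, 9.73 and 10.75 in TTX sham and 8.84, 9.91 and 11.22 with TTX. Lesion arrays reached lower, but every group overlapped the others. The difference was -1.04 ± 0.43 (adjusted p = 0.722). Within blocks the effects were -1.11 and -0.43 for the lesion and -0.43 and 0.65 for TTX, so its TTX effect changed sign.

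Among the Nr4a receptors, Nr4a3 (1369067_at) had the smallest p of the list. In the lesion experiment it ran from 11.12 to 12.48 in sham, with a median of 11.61, and from 10.35 to 12.07 after the lesion, with a median of 11.05. In the TTX experiment the sham arrays ran from 11.48 to 11.95 (median 11.71) and the TTX arrays from 11.12 to 12.38 (median 11.80). Of the lesion arrays 7 of 12 lay below every sham, and TTX arrays scattered on both sides of theirs. Its effects were -0.51 ± 0.16 and 0.063 ± 0.17, a difference of -0.57 ± 0.23 (unadjusted p = 0.0171, adjusted 0.71), and its other probe set gave -0.42. Within blocks they were -1.06 and 0.036 for the lesion and 0.18 and -0.0073 for TTX, so that the lesion effect was seen in the first block only. Nr4a1 had effects of -0.30 ± 0.17 and 0.26 ± 0.17, of the same sign in both blocks at -0.29 and -0.31 for the lesion and 0.11 and 0.34 for TTX, and a difference of -0.56 ± 0.24. Nr4a2 was at -0.13 ± 0.17 and 0.28 ± 0.18. Its other probe set was at 0.11 ± 0.25 and 0.38 ± 0.27, so the sign of its lesion effect differed between probe sets.

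The AP-1 members were more variable. Fos, the most used activity marker, had effects of -0.30 ± 0.32 and 0.23 ± 0.33, within their errors, and a difference of -0.54 ± 0.46. Junb was at -0.040 ± 0.13 and 0.29 ± 0.13, Jund at -0.13 ± 0.076 and 0.070 ± 0.080, and Jun at 0.17 ± 0.084 and 0.058 ± 0.088, the only AP-1 member with a positive difference. Egr4 was at -0.22 ± 0.084 and -0.023 ± 0.088, Klf10 at -0.084 ± 0.10 and 0.16 ± 0.11, and Ier2 at 0.039 ± 0.15 and 0.22 ± 0.16. Crem, which encodes repressors and activators of CRE transcription, had a difference of 0.052 ± 0.14. It was -0.060 without the 2 arrays of low correlation, and its other probe set had the opposite sign, at -0.058.

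Averaged over the 13 members and set against the own sham mean, the list ran from -0.31 to 0.31 in lesion sham and from -0.54 to 0.12 after the lesion (median -0.24). It ran from -0.18 to 0.17 in TTX sham and from -0.18 to 0.39 with TTX (median 0.16). Below the sham mean were 9 of 12 lesion arrays and above it 9 of 11 TTX arrays, so the groups overlapped in both experiments. The members' median lesion effect was -0.28 in the first and -0.073 in the second block, and their median TTX effect 0.081 and 0.044. Without lesion replicate 7 the median difference was -0.28, and without both arrays of low correlation -0.25.

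**Figure D3:**
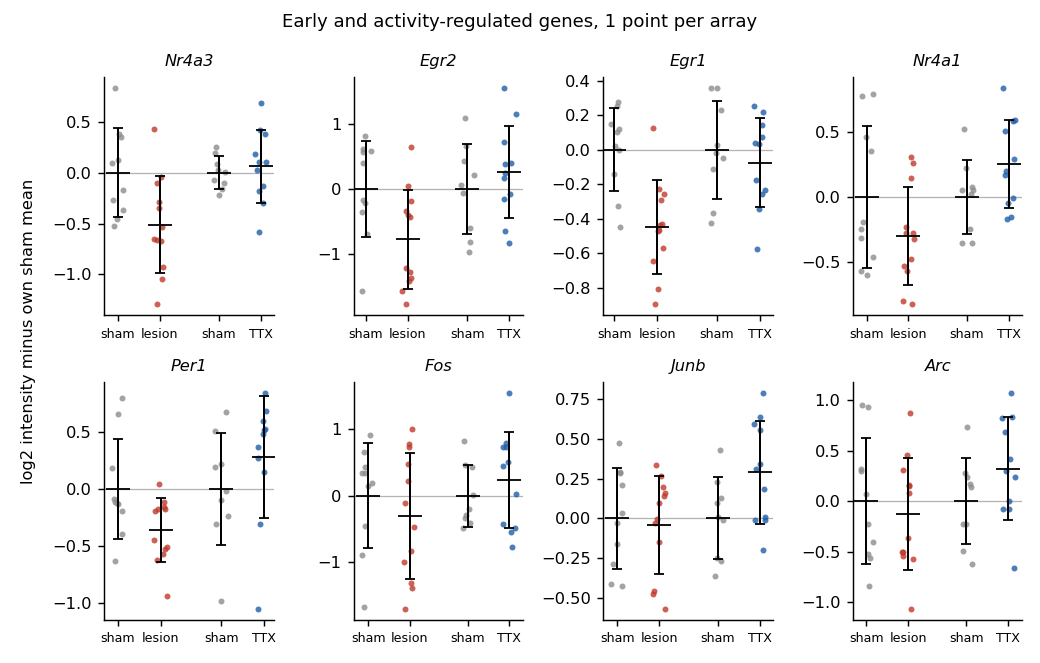
Log2 intensity minus the mean of the own sham group, 1 point per array, for 8 early and activity-regulated genes; bars show the mean and 1 SD. Egr1 and Nr4a3 sit below their shams after the lesion and not with TTX, and Fos, Egr2 and Arc overlap widely.

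The slower, activity-induced effector genes did not share this direction. Of 26 listed, 19 were tested, with 10 positive and 9 negative differences and a median of 0.0076 (-0.0066 without the 2 arrays of low correlation). Only Inhba (0.45 ± 0.22), the activin subunit, and Per1 (-0.65 ± 0.26) were at an unadjusted p under 0.05, 1 in each direction. Of all probe sets 3.22% were positive and 3.12% negative at that level. The synaptic gene Arc was at -0.13 ± 0.22 and 0.32 ± 0.23, the scaffold Homer1 at -0.14 ± 0.047 and -0.054 ± 0.049, and the neurotrophin Bdnf at 0.13 ± 0.14 and -0.056 ± 0.15, none past the test. All 5 tested Homer1 probe sets were lower in both experiments. The widest, 1370454_at, was at -0.49 ± 0.16 and -0.31 ± 0.17, a mean effect of -0.40 ± 0.12 (limma, adjusted p = 0.698). By block its effects were -0.83 and -0.14 for the lesion and 0.020 and -0.53 for TTX. Per1 (1374855_at), a clock repressor that is also induced by activity and by glucocorticoids, counted in 3 lists. Sham arrays of the lesion experiment lay between 9.61 and 11.04 around a median of 10.12, and lesion arrays between 9.30 and 10.29 around 9.92. The corresponding spans were 8.88 to 10.55 around 9.85 in TTX sham and 8.81 to 10.71 around 10.35 with TTX. Lesion arrays were low, 11 of 12 under the sham mean, and 9 of 11 TTX arrays were high, with wide overlap. Among circadian clock genes 12 of 18 differences were negative (median -0.065), with Bhlhe40 (-0.42 ± 0.16) beside Per1 at an unadjusted p under 0.05 and Per2 at -0.27 ± 0.14. Among glucocorticoid-responsive genes 11 of 14 were negative (median -0.080). 

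Ion channel genes had more negative than positive differences, where 50.61% of all genes were positive. Few were at an unadjusted p under 0.05, a level that 3.12% of all probe sets reached on the negative side. Of potassium and HCN channels 14 of 20 were negative (median -0.071), and 3 were at that level, all negative: Hcn2, the A-type channel Kcnd2 (-0.22 ± 0.088) and the G protein-gated channel Kcnj9 (-0.39 ± 0.17). All 12 lesion arrays had Kcnd2 below the sham mean and all 11 TTX arrays had Kcnj9 above it. Over everything tested, all arrays lay on 1 side in 176 cases for the lesion and in 162 for TTX. Voltage-gated calcium channels were negative for 11 of 15 (median -0.094) with 0 at that level. Voltage-gated sodium channels, the family that TTX blocks, were negative for 7 of 8 (median -0.031), also with 0 at that level. Scn1a was at -0.22 ± 0.10 and -0.028 ± 0.11, Scn2a at 0.0097 ± 0.057 and -0.067 ± 0.059, and Scn8a at -0.12 ± 0.13 and -0.10 ± 0.13. Without lesion replicate 7 the sodium channel median was 0.0067, of the other sign, and the calcium channel median -0.032.

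Among receptors the GABA-A subunit Gabra5 (1371057_at), found mainly outside synapses, had the smallest p. The lowest, median and highest log2 values were 12.39, 12.78 and 13.08 in lesion sham and 12.10, 12.54 and 13.05 after the lesion. They were 12.45, 12.62 and 12.73 in TTX sham and 12.37, 12.87 and 13.23 with TTX. With TTX 7 of 11 arrays exceeded every sham, and 10 of 12 lesion arrays were below the sham mean. The effects were -0.22 ± 0.094 and 0.19 ± 0.098 and the difference -0.41 ± 0.14 (adjusted p = 0.708). Within blocks they were -0.44 and -0.0056 for the lesion and 0.45 and 0.0029 for TTX, so both were seen in the first blocks only. The rest of its list was divided, 5 of 8 negative with a median of -0.033 (-0.066 without lesion replicate 7). The kainate receptor subunit Grik2 had a difference of -0.28 ± 0.11 and its relative Grik4 one of 0.27 ± 0.15, in a list of AMPA and kainate subunits with 6 of 8 negative. The presynaptic glutamate receptor Grm4 was at -0.30 ± 0.15. The obligatory NMDA subunit Grin1 (-0.15 ± 0.093) and the AMPA subunit Gria1 (-0.0082 ± 0.15) did not pass at an unadjusted p under 0.05, and the other Grin1 probe set had a difference of 0.040.

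Synaptic scaffolds were mixed. The presynaptic list had 11 of 19 negative differences (median -0.031) and the postsynaptic one 12 of 20 (median -0.020), where 50.61% of all genes were positive. Without lesion replicate 7 these medians were -0.013 and -0.0030, and without both arrays of low correlation 0.0056 and -0.0040, so that the first changed sign. Rims1, which docks vesicles at the active zone, was at -0.28 ± 0.088 and 0.12 ± 0.092, with 8 of 12 lesion arrays below every sham. Shank3 had a difference of -0.21 ± 0.088, Begain one of -0.45 ± 0.20 and Dlg2, which encodes PSD-93, one of 0.29 ± 0.13. Negative at an unadjusted p under 0.05 were 1 presynaptic and 2 postsynaptic members, and positive were 0 and 1. Of all probe sets 3.12% were negative and 3.22% positive at that level. Genes of axon growth and sprouting were negative for 15 of 19 (median -0.049), and the neuronal tubulin Tubb3 was at -0.092 ± 0.067 and 0.13 ± 0.070. Only 1 negative and 1 positive member of this list were at that level. The widest difference of the list was that of Sprr1a, a regeneration-associated gene, at 1.11 ± 0.51. Its lesion arrays ran from 8.68 to 12.39 against 8.23 to 9.63 in sham, and 5 of 12 were above all shams. The lesion effect was 1.97 in the first block and 0.28 in the second.

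Among 16 tested markers of interneurons the peptides Npy and Crh had positive differences at an unadjusted p under 0.05, beside 3.22% of all probe sets. Npy (1387154_at), neuropeptide Y, was the leading member. In the lesion experiment it ran from 13.36 to 13.83 in sham, with a median of 13.64, and from 13.59 to 14.76 after the lesion, with a median of 13.92. In the TTX experiment the sham arrays ran from 13.67 to 13.83 (median 13.70) and the TTX arrays from 13.64 to 13.87 (median 13.81). Lesion arrays were high, 8 of 12 above every sham, and the TTX arrays stayed near theirs. The effects were 0.41 ± 0.092 and 0.056 ± 0.096 and the difference 0.35 ± 0.13 (adjusted p = 0.708), with lesion effects of 0.65 and 0.17 by block. Crh, corticotropin-releasing hormone, was at 0.34 ± 0.15 and -0.13 ± 0.16, a difference of 0.48 ± 0.22. The tachykinin precursor Tac3 (0.42 ± 0.25), calretinin, Calb2 (-0.29 ± 0.17), Gad1, which makes GABA (0.082 ± 0.067), and Pvalb, a marker of fast-spiking cells (0.15 ± 0.12), did not pass at an unadjusted p under 0.05. Over the list 11 of 16 differences were positive, beside 50.61% of all genes, with a median of 0.067. The opioid precursor Penk, a striatal and interneuron peptide, was at 0.39 ± 0.093 and 0.052 ± 0.097, a difference of 0.34 ± 0.13.

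Housekeeping lists had small positive median differences: 0.027 for respiratory chain subunits (52 of 70 positive), 0.050 for cytosolic ribosomal proteins (34 of 41), 0.044 for proteasome subunits (24 of 36) and 0.026 for heat shock and unfolded protein genes (12 of 20). Over all genes 50.61% of differences were positive. Positive at an unadjusted p under 0.05 were, in the same order, 2, 1, 2 and 2 members, beside 3.22% of all probe sets. They were the complex I subunit Ndufc2 (0.17 ± 0.064) and the complex II subunit Sdhc (0.14 ± 0.057), Rps24 (0.16 ± 0.073), the proteasome subunits Psma2 (0.28 ± 0.093) and Psmd1 (0.27 ± 0.11), and the chaperones Hsp90b1 (0.21 ± 0.079) and Hspe1 (0.14 ± 0.064). The ribosomal gene Rpl39 had the opposite sign at -0.82 ± 0.37. Without the 2 arrays of low correlation the respective medians were 0.015, 0.027, 0.026 and 0.0065.

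Turning to agreement, the gene closest to a call was Tm9sf3 (1371647_at), which encodes a membrane protein of the secretory pathway and was lower in both experiments. Sham arrays of the lesion experiment lay between 12.88 and 13.23 around a median of 13.04, and lesion arrays between 12.57 and 13.13 around 12.77. The corresponding spans were 12.95 to 13.32 around 13.08 in TTX sham and 12.37 to 13.05 around 12.82 with TTX. Below every sham lay 8 of 12 lesion arrays and 7 of 11 TTX arrays. The effects were -0.24 ± 0.072 and -0.30 ± 0.076, a mean effect of -0.27 ± 0.052 (adjusted p = 0.112). It passed without lesion replicate 7 (adjusted p = 0.0309), without TTX replicate 4 (0.0473) or 5 (0.0492), without the 2 arrays of low correlation (0.0401) and with array weights (0.0106). By block the effects were -0.34 and -0.13 for the lesion and -0.13 and -0.42 for TTX. Its other 2 probe sets had mean effects of 0.029 and 0.039, of the opposite sign, so the agreement rests on 1 probe set.

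Lower in both were also Etl4 (-0.18 and -0.20), the chromatin remodeller Chd7 (-0.25 and -0.24) and the synaptic receptor phosphatase Ptprd (-0.086 and -0.091). The other probe sets of Chd7 and Ptprd, 2 each, had negative mean effects too. Of the 11 genes higher in both, 8 are named by rule. Alg10 (1370317_at), a glucosyltransferase of N-glycan assembly, had the smallest p among them. The lowest, median and highest log2 values were 11.31, 11.40 and 11.65 in lesion sham and 11.42, 11.63 and 11.90 after the lesion. They were 11.37, 11.46 and 11.64 in TTX sham and 11.42, 11.61 and 11.90 with TTX. High values prevailed on both sides, with 5 of 12 lesion and 5 of 11 TTX arrays above every sham. Effects were 0.21 ± 0.057 and 0.16 ± 0.060, with a mean of 0.18 ± 0.041 (adjusted p = 0.353). The histone demethylase Kdm4b (1388572_at) followed at 0.21 ± 0.086 and 0.29 ± 0.090, where 11 of 11 TTX arrays and 11 of 12 lesion arrays were above the sham mean. Its other 2 probe sets were at -0.084 and 0.020.

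The remaining 6 were Spag7 (0.28 and 0.24), the complex I assembly factor Ndufaf5 (0.16 and 0.14), the xylosyltransferase Xxylt1 (0.14 and 0.15), Syde1 (0.26 and 0.28), the vesicle protein synaptoporin, Synpr (0.20 and 0.23), and the mitochondrial glycine carrier Slc25a38 (0.14 and 0.16). For these the lesion and TTX effects differed by no more than 0.043. Synpr was higher in its other probe set as well, at a mean effect of 0.21. Its TTX effect was 0.45 in the first block and 0.062 in the second, and that of Syde1 was -0.15 and 0.51.

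**Figure D4:**
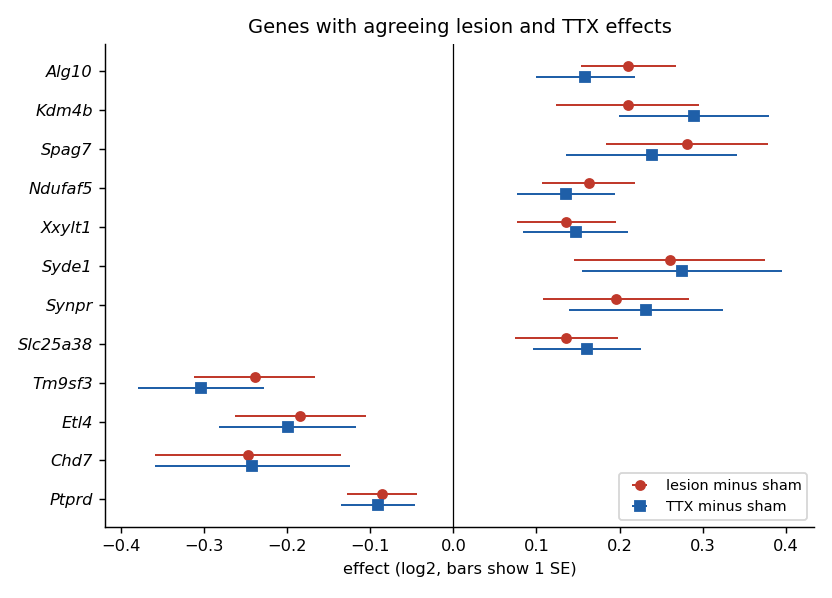
Lesion effect (red circles) and TTX effect (blue squares) in log2 with bars of 1 SE for the 12 named genes with agreeing effects. The first 8 lie right of 0 and the last 4 left of it, and the bars of each pair overlap.

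A small p for the mean effect did not by itself mean agreement. Glo1, the glyoxalase that detoxifies methylglyoxal, had the smallest p on the positive side (limma, mean effect 0.10 ± 0.022, adjusted p = 0.347). This came mainly from the lesion experiment, where the 12 lesion arrays ran from 14.14 to 14.34 and the 10 shams from 14.00 to 14.11. Glo1 was picked by its p, so this gap is no further evidence, and the share of all genes with such a gap is not given. Its effects were 0.17 ± 0.030 and 0.035 ± 0.032, with a difference of 0.13 ± 0.044. Nol3 (0.23 and 0.052) and the orphan receptor Gpr19 (0.24 and 0.12) had the larger effect after the lesion. The autophagy gene Atg12 (0.064 and 0.18), Faf1 (0.030 and 0.24) and Lrrfip2 (0.19 and 0.32) had it after TTX. Other probe sets differed: 1 of Atg12 was at 0.22 after the lesion and -0.016 after TTX, and that of Lrrfip2 at 0.059 and -0.29. On the negative side Lrrc1 (-0.13 and -0.52), Phf3 (-0.12 and -0.22) and the histone demethylase Kdm3b (-0.090 and -0.19) were lower mainly with TTX. The M-current channel Kcnq5 (-0.18 and -0.067), Dlc1 (-0.19 and -0.067), Hspa12a (-0.17 and -0.077) and Chd9 (-0.12 and -0.078) had the more negative value after the lesion. The other Kcnq5 probe set was at -0.015 and 0.11 and the other Chd9 probe set at 0.021 and -0.073, so neither showed this.

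Among the gene lists, oligodendrocyte and myelin markers agreed most often. Of 19 tested, 15 were lower in both experiments, 0 higher in both and 4 opposed. Of all genes 49.44% had effects of the same sign, those higher in both and lower in both together. Median effects were -0.13 and -0.14, beside 0.0035 and 0.0032 over all genes, and the median difference was 0.0097. That difference was -0.035 without lesion replicate 7 and -0.019 without both arrays of low correlation, of the other sign. In bulk tissue fewer cells of a type and less RNA per cell cannot be told apart. The list average against the sham mean ran from -0.54 to 0.36 after the lesion (-0.12 to 0.26 in sham) and from -0.42 to 0.20 with TTX (-0.22 to 0.22 in sham), so groups overlapped widely. At an unadjusted p under 0.05 for the mean effect were 2 of 19, both negative, beside 250 of all 10149 genes on the negative side. The abundant myelin gene Mbp was nearly level (-0.035 ± 0.050 and -0.045 ± 0.052), and the lineage factor Olig2 was opposed (-0.095 ± 0.19 and 0.32 ± 0.20). In the first blocks the medians were -0.19 and -0.23, and in the second -0.011 and -0.11.

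Respiratory chain subunits were higher in both experiments for 33 of 70 and lower in both for 7. Of all genes 49.44% had effects of the same sign, those higher in both and lower in both together. At an unadjusted p under 0.05 for the mean effect were 11, all positive, beside 399 of all 10149 genes on the positive side. The list's median effects were 0.043 and 0.017. Striatal neuron markers were higher in both for 7 of 12, with medians of 0.093 and 0.072. The dopamine receptor Drd1 was at 0.45 ± 0.18 and 0.18 ± 0.19, a difference of 0.27 where its other probe set had -0.015, and the G protein subunit Gnal at 0.18 ± 0.13 and 0.15 ± 0.14. The other Gnal probe set had a difference of -0.53, where this one had 0.028. Endothelial and mural markers were lower in both for 9 of 19 (medians -0.091 and -0.071). The contractile gene Acta2 (-0.43 ± 0.16) and the junction gene Esam (-0.28 ± 0.13) nevertheless had negative differences at an unadjusted p under 0.05, beside 3.12% of all probe sets. Markers of astrocytes were lower in both for 9 of 15 (medians -0.011 and -0.025) with Gfap at 0.17 ± 0.10 and -0.019 ± 0.11.

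Microglial and immune markers had positive differences for 9 of 14, beside 50.61% of all genes. B2m (0.20 ± 0.079) and Ctss (0.30 ± 0.13) were at an unadjusted p under 0.05, beside 3.22% of all probe sets on the positive side. The list's median difference was 0.079. That median was 0.034 without lesion replicate 7 and 0.032 without both arrays of low correlation. Cortical excitatory and layer markers were lower in both for 8 of 19 and opposed for 9, where 49.44% of all genes had effects of the same sign. Meningeal, fibroblast and choroid plexus markers were lower in both for 8 of 12 (medians -0.13 and -0.037), with 0 at that level for the difference and Igf2 at -0.55 ± 0.30 and -0.011 ± 0.31. The 2 tested blood markers, Hbb (-0.064 ± 0.22) and Alas2 (-0.26 ± 0.25), did not pass at an unadjusted p under 0.05. The part of other cell types in the genes above was not tested.

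Neurotrophins and their receptors had 3 of 6 positive differences (median 0.034), dopamine receptors and signalling genes 4 of 10 (median -0.044), and serotonin, adrenergic and muscarinic receptors 5 of 13 (median -0.072), all with 0 at an unadjusted p under 0.05. The 5 NMDA subunits had a median of 0.0048 and the 6 metabotropic glutamate receptors one of -0.0039. Without lesion replicate 7 these were 0.076 and 0.041, and the median of the serotonin, adrenergic and muscarinic list -0.033. Without both arrays of low correlation the NMDA median was 0.096 and the neurotrophin median 0.053. The dopamine-regulated phosphatase inhibitor Ppp1r1b, known as DARPP-32, was at -0.094 ± 0.080 and 0.091 ± 0.084, and the serotonin receptor Htr5a at -0.083 ± 0.12 and 0.20 ± 0.13.

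**Figure D5:**
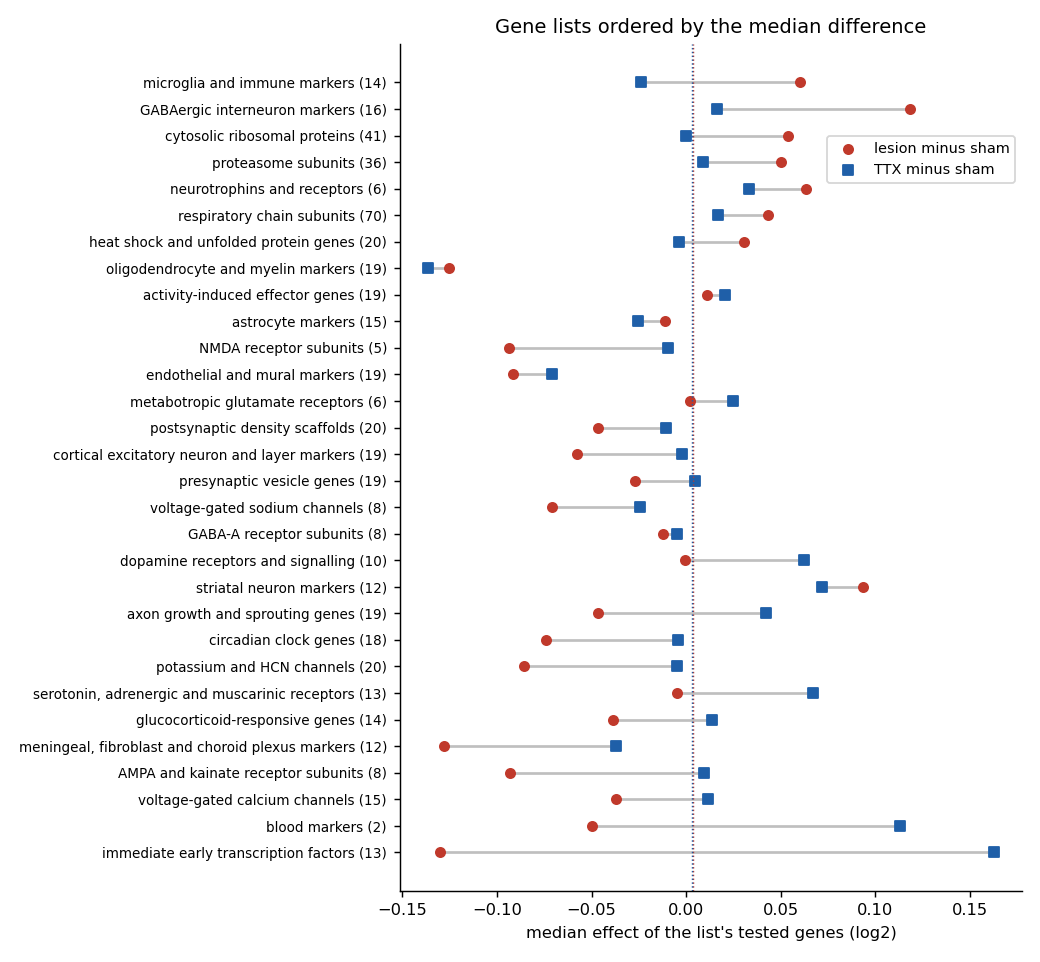
Median lesion effect (red circles) and median TTX effect (blue squares) of the tested genes of 30 lists, in log2, ordered by the median difference, with the number of genes in brackets; dotted lines mark the medians of all genes. Immediate early transcription factors have the widest gap (-0.13 and 0.16), and oligodendrocyte markers lie left of 0 in both (-0.13 and -0.14).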

How the data were processed

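The deposited table holds linear intensities of 31099 Affymetrix probe sets, 1 column per array. The method the authors used to summarise the probes is not given in the sources used here, and their values share a trimmed mean (2% trimmed) across arrays. Of 105 columns 63 were not used. The 42 arrays were grouped by their sample descriptions. Quantile normalisation was run for each experiment alone, values under 32 (6.30%) were set to 32, and log2 was taken. After 57 control probe sets were left out, the 60% with the highest mean, 18625, were tested in limma 3.58.1 (R 4.3.3). The model had 1 mean per group and 38 residual degrees of freedom, with Benjamini-Hochberg adjustment over all probe sets and calls at an adjusted p under 0.05. Its code was tested on simulated data.

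A shift common to all arrays of an experiment cancels because each experiment is set against its own sham. Levels are not compared between experiments, where experiment and group cannot be told apart. A gene is its tested probe set of highest mean among those with 1 symbol in the platform annotation (20826 have 1, 436 several and 9780 none). Named genes are the 10 with the smallest p per direction for the difference and the mean effect. To these come up to 8 per pattern of opposed or agreeing effects at an unadjusted p under 0.05, up to 4 per list, all tested immediate early transcription factors and 16 set names. Members and lists were chosen with earlier results of these data known. Promoters came from RefSeq. Another 11 settings (normalisation, floor, filter, sample number, weights) and 42 fits that each left out an array were run. A further 2, without the arrays of low mean correlation and with blocks of sample numbers, were chosen after seeing the data. No 2 arrays were identical. Figures were drawn with matplotlib 3.10.9.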

Additional observations from a re-analysis of the deposited data

Results flagged for a closer look

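In 15 of 238 combinations of a named gene and a sham group, 1 sham array stood apart from the others of its group by Dixon's criterion, where chance gives about 1 in 20. The widest gap was that of Ttr, a choroid plexus gene, in TTX sham replicate 3, at 16.64. Among genes with opposed effects, sham arrays stood apart for Mdfic (lesion sham replicate 9, lowest at 8.06), Rnf126 and Vash1 (both lesion sham replicate 4, lowest at 11.54 and 11.41), Dusp8 (TTX sham replicate 9, lowest at 9.18) and Kctd5 (lesion sham replicate 7, highest at 11.89). Ptprd, among the agreeing genes, was highest in lesion sham replicate 9, at 14.67. Jun was highest in TTX sham replicate 1, at 12.66, and Homer1 lowest in TTX sham replicate 9, at 14.34. Pdcd5 was highest in TTX sham replicate 8, at 13.85, and Psmd1 highest in TTX sham replicate 5, at 12.79. Drd1 was lowest in TTX sham replicate 2, at 8.94, and Ndufc2 lowest in TTX sham replicate 4, at 14.61. Dlg2 was lowest in lesion sham replicate 7, at 9.77, and Igf2 lowest in lesion sham replicate 8, at 10.48.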

How the results depend on the processing

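The count of 0 calls for the difference held under every alternative except sample number as a covariate, which called 4 probe sets: Scarb2, Gadd45a, Mapre1 and Glis2. The mean effect had 1 call, Tm9sf3, with array weights and without the arrays of low correlation, and 0 to 1 when single arrays were left out. Probe sets at an unadjusted p under 0.05 for the difference numbered 1904 with no filter, 2088 with sample number and 492 with runs of sample numbers as a random block. Each run held arrays of 1 group only, with a consensus correlation of 0.198 within runs. Opposed probe sets numbered 61 with no filter, 61 with early against late sample numbers as a term, 119 with sample number, 4 with runs, 51 with array weights and 45 with blocks. Single arrays left out gave 17 (TTX replicate 5) to 48 (TTX sham replicate 2). Agreeing ones numbered 4 with runs and 68 with blocks, and 24 to 53 (TTX sham replicate 8) with single arrays left out. The immediate early median stayed negative, between -0.38 and -0.22. For 119 named genes the difference or the mean effect was recomputed. Of these values 113 kept their sign throughout, and the differences of 6 genes did not. Crem was at -0.039 with weights and -0.060 without the arrays of low correlation (-0.036 to 0.089 with single arrays left out). Gnal was at -0.00099 with blocks (-0.035 to 0.12). Mbp was at -0.076 on values as deposited and -0.0028 with weights (-0.012 to 0.033). Scn8a was at 0.0049 with early against late numbers and 0.044 with sample number (-0.11 to 0.037). Gria1 was at 0.0062 with early against late numbers, 0.033 with sample number, 0.0096 with runs, 0.049 with weights and 0.015 without the arrays of low correlation (-0.048 to 0.055). Ttr was at -0.051 with sample number and -0.0054 with weights. Its TTX sham mean includes replicate 3 at 16.64, where the next highest sham array was at 9.24. Its range with single arrays left out is not given here. The cause was not tested. No paired analysis was possible because the labels give the groups no shared replicate numbers.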

Other observations

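Of the 4 genes called for the difference once sample number was a covariate, Gadd45a and Glis2 were outside the naming rule and were singled out after their values were seen. Gadd45a, a gene induced by DNA damage and by neuronal activity, had a difference of 0.54 without the covariate and 0.58 with it (limma, adjusted p = 0.0391). Glis2, a zinc finger factor, had -0.47 without and -0.57 with it (limma, adjusted p = 0.0213). Both were of opposed sign in the experiments: with the covariate Gadd45a was at 0.34 after the lesion and -0.24 after TTX, and Glis2 at -0.31 and 0.26.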
